A study of Mus musculus with 4 samples.

Results

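The hippocampus of female offspring held 3192 CpG sites whose methylation level lay between 40 and 60% in both the E3 and the CT library. They were chosen by these levels, with 20 to 99 reads in each library and a position on chromosomes 1 to 19, so the levels themselves are a description and carry no test. A site is the cytosine of a CpG on 1 strand, and the table held 2226271 such sites, of which 197105 met the limits on reads and chromosome (eligible sites). The intermediate sites made up 1.62% of the eligible sites. They lay at 3167 CpGs, 1629 on the plus and 1563 on the minus strand, and at 25 CpGs both strands were intermediate.

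Wild-type CD-1 mothers, an outbred stock, were treated with E3 (estriol) in DMSO or with DMSO alone (CT) by an osmotic pump from gestation day 9 for 7 days, and the labels give the female offspring an age of 8 weeks. Methylation was read by Methyl-MiniSeq, in which bisulfite-treated fragments near the cutting sites of the enzymes TaqαI (TCGA) and MspI (CCGG) are sequenced. There was 1 library per tissue and condition, E3 hippocampus, CT hippocampus, E3 frontal cortex and CT frontal cortex, which leaves every value without a replicate check and makes each test one of libraries, not of conditions. Neither the labels nor the methods say whether a library held the DNA of 1 mouse or of several. The mean depth per CpG site was 33.5 reads in the E3 and 12.3 reads in the CT hippocampus.

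Most CpGs of a mammalian genome are either largely methylated or, in CpG islands at promoters, largely unmethylated. Levels near the middle of the range are known at imprinted genes, where 1 parental allele is methylated and the other is not, at genes such as the clustered protocadherins, which neurons switch on in differing combinations, and at sites methylated in some cell types of a tissue and not in others. The deposited table gives totals per site and not single reads, so methylation of 1 allele and methylation of part of the cells cannot be told apart here.

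The sequences of 6 clusters, the 2 at imprinted genes and 4 others that were described in depth, are shown because several intermediate CpGs followed each other within a short stretch. All are on the plus strand of GRCm38.p6 (mm10), 5′ to 3′, with the intermediate CpGs in capitals and 15 bases on each side. Nap1l5 is chr6:58906806-58906872, Zrsr1 chr11:22972021-22972104, Tmem267 chr13:119488694-119488757, Zmynd8 chr2:165845141-165845214, Dnah8 chr17:30810476-30810560 and Kalrn chr16:34113234-34113337. Other CpGs in these stretches, in lower case, were outside the chosen range, were not eligible or lay in the flanks.
Nap1l5: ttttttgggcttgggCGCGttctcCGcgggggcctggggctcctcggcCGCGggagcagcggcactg
Zrsr1: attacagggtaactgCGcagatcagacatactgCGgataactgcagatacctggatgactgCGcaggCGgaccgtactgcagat
Tmem267: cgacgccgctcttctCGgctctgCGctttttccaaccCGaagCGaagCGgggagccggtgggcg
Zmynd8: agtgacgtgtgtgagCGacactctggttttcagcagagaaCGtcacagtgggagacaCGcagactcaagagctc
Dnah8: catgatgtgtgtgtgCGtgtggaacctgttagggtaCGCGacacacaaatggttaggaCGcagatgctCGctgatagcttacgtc
Kalrn: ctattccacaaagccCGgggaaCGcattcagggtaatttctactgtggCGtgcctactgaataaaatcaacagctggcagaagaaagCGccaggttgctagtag

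Levels between 40 and 60% were uncommon in either library. They were found at 12396 eligible sites in E3 (6.29%) and at 13087 in CT (6.64%), and 25.8% of the E3 sites and 24.4% of the CT sites were also intermediate in the other library. The median level of the 3192 sites was 51% in E3 and 50% in CT. Their median depth was 50 reads in E3 (quartiles 36 and 65) and 24 reads in CT (quartiles 21 and 29), so the CT level was the less precise of the pair. A site at 25 of 50 reads has a 95% Wilson interval of 36.6 to 63.4%, and one at 12 of 24 reads of 31.4 to 68.6%. The interval lay within 30 to 70% at 2048 sites in E3 and at 654 sites in CT. That it lay within 20 to 80% in both libraries at every one of the 3192 sites follows from the limits on reads and levels. These intervals cover counting error only, since PCR reads are not independent molecules. The number of reads was even at 61.4% of the intermediate sites in E3 and 69.7% in CT, against 66.2% of eligible sites in E3 and 73.7% in CT. Whether reads of 1 molecule were counted more than once was not tested. At the edges of the range, 304 sites were at exactly 40 or 60% in E3 and 472 in CT, while 1317 eligible sites just outside it had both levels within 38 to 62%.

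**Figure D1:**
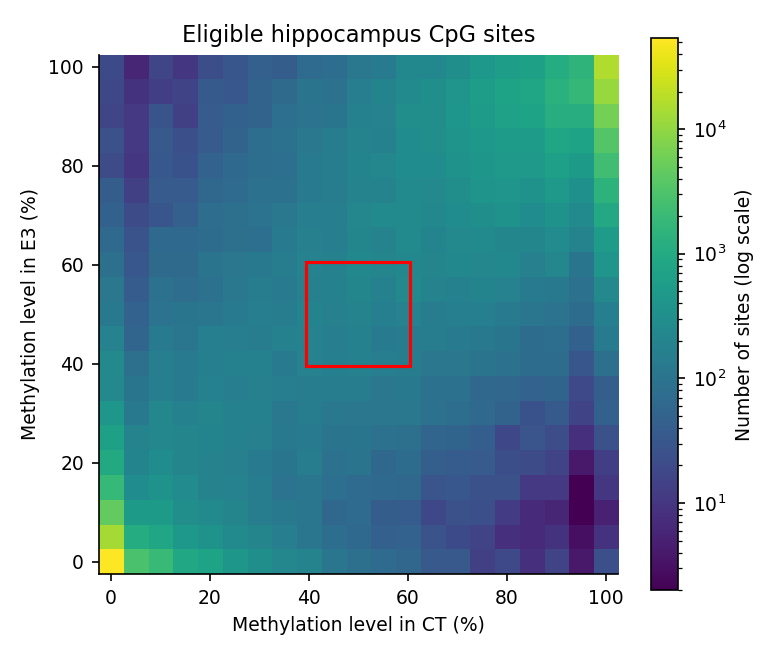
Number of eligible CpG sites (colour, log scale) by methylation level in E3 (vertical axis, %) and CT (horizontal axis, %), in steps of 5 points. The red square encloses the 3192 sites at 40 to 60% in both libraries, far fewer than the sites in the corners that are low or high in both.

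The reads of the opposite strand did not enter the choice of a site, so the same CpG read from its other strand gave a second measurement in each library. Of the 3192 sites, 1787 (56.0%) had an opposite strand in the table, and 1217 of these had at least 10 reads there in both libraries. The opposite strand was at 20 to 80% in both libraries at 723 of the 1217 (59.4%, 95% Wilson interval 56.6 to 62.1%), against 9.78% of the opposite strands of eligible sites. It was at 40 to 60% in both at 131 (10.8%), against 1.34%. Sites that were intermediate in E3 alone had an opposite strand at 20 to 80% in both libraries in 51.3%, those intermediate in CT alone in 31.1%, those at 10% or less in both libraries in 0.217% and those at 90% or more in 1.56%. Without the strands that were themselves intermediate sites, 57.7% of 1167 were at 20 to 80% in both libraries. The Wilson interval of a share of sites, here and below, counts sites as independent. Close sites share reads, so it can be too narrow.

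The opposite strands stayed near the middle in E3 and spread over the whole range in CT. Their median was 51.2% in E3 (quartiles 38.8 and 65.4) and 50.0% in CT (quartiles 27.3 and 72.7). Levels of 20 to 80% were found at 90.7% of them in E3 and 64.0% in CT, and levels under 10% or over 90% at 2.05% in E3 and 21.3% in CT. The depth moved with this spread, with a median of 50 reads in E3 and 16 in CT. With at least 20 reads on the opposite strand in both libraries (451 strands, median depth 60 in E3 and 26 in CT), 90.9% were at 20 to 80% in E3 and 70.1% in CT, and 1.77% in E3 and 16.2% in CT were under 10% or over 90%. The 95% Wilson interval of the opposite strand held 50% at 656 of the 1217 strands in E3 (53.9%) and at 619 in CT (50.9%). Over the 1217 strands, Pearson's r between the E3 and the CT level was 0.28, a description over sites that share libraries and, where they are close, reads.

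**Figure D2:**
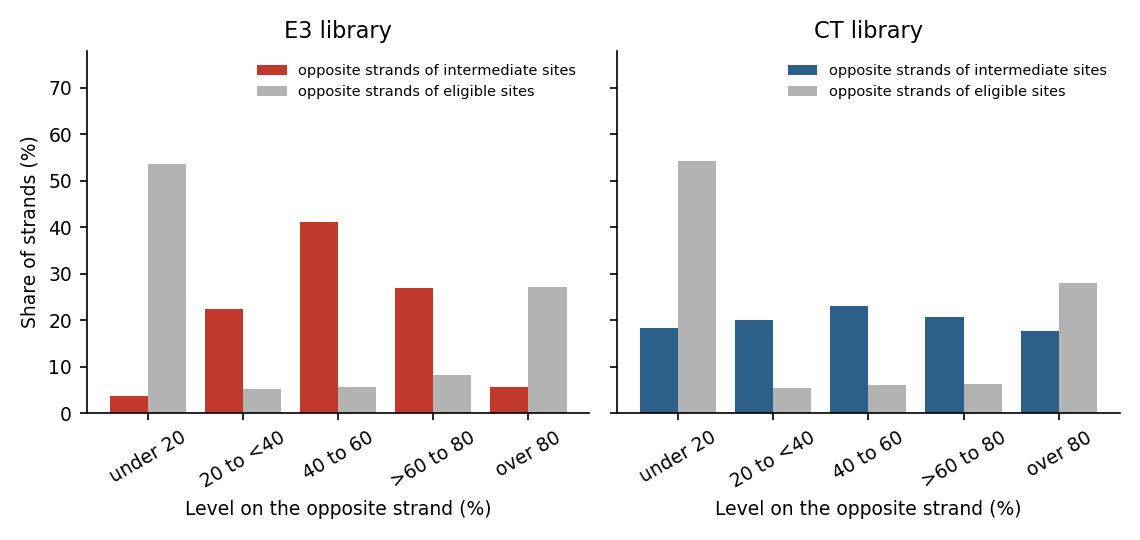
Share of opposite strands (%) by methylation level (%) in the E3 library (left) and the CT library (right), for the 1217 opposite strands of intermediate sites (coloured) and the 85532 of eligible sites (grey), all with at least 10 reads in both libraries. Of the coloured bars, 41.2% were at 40 to 60% in E3 and 23.2% in CT, where the 5 bars differ little.

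Differences between E3 and CT were then read on these opposite strands. Each site of the table with at least 5 reads in both libraries was tested by a 2-sided Fisher's exact test of methylated reads, and called sites were those at least 10 points apart with a p under 0.05 before adjustment. The test counts each read as an independent molecule, so its p-values, like the intervals, cover counting error only and are too small where reads share a molecule. Of the 1787 opposite strands, 578 were called (32.3%), 316 hypermethylated and 262 hypomethylated in E3, and 200 of them also had a Benjamini-Hochberg adjusted p under 0.05 over all sites. Over all sites tested, 11.0% were called, 6.18% as higher and 4.83% as lower in E3, and 3.35% were called with the adjusted p. Among sites at 30 to 70% over both libraries 34.7% were called, and among the 1308 opposite strands at those levels 452 were called (34.6%). Among the opposite strands of all eligible sites, 12.8% were called. No intermediate site was itself called, a count that the choice of levels bears on and that carries no weight.

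Among the opposite strands with the smallest p-values, 3 were picked after their values were seen. The smallest p belonged to a CpG outside genes on chromosome 15 (position 16309486), whose plus strand was at 40% of 25 reads in E3 and 60% of 20 in CT. Its minus strand was at 100% of 39 reads in E3 and 0% of 14 reads in CT, a count of 0 that allows up to 21.4% (Fisher's exact test, 2-sided, p = 4.16e-13, adjusted p = 2.33e-09). In an intron of Camta1, a calmodulin-binding transcription activator, a site on chromosome 4 (position 151733311, minus strand) was at 58.6% of 58 reads in E3 and 53.8% of 26 in CT. Its plus strand was at 85.0% of 40 reads in E3 and 0% of 18 reads in CT, where a count of 0 allows up to 16.7% (Fisher's exact test, 2-sided, p = 2.99e-10, adjusted p = 4.71e-07). Near the start of Syce2, a component of the synaptonemal complex, a plus-strand site at position 84871455 of chromosome 8 was at 42.9% of 70 reads in E3 and 50.0% of 20 in CT. Its minus strand was at 0% of 40 reads in E3, which allows up to 7.5%, and 80% of 20 reads in CT (exact p = 3.24e-11, adjusted p = 7.95e-08). The cause of such differences between the strands of 1 CpG was not tested.

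Both strands were intermediate in both libraries at 25 CpGs, of which the pair with the most reads is printed with 15 bases on each side and the CpG in capitals. Their levels in the range on both strands are what chose them and are a description. The first lies outside annotated genes at chr8:49628139-49628170, and the second in an intron of the long noncoding RNA gene Gm30382 at chr3:149411734-149411765 (both plus strand, GRCm38.p6).
Site outside genes: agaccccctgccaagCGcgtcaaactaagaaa
Gm30382: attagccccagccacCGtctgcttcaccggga
The site outside genes was at 50.0% of 98 plus-strand reads and 56.4% of 94 minus-strand reads in E3, against 50.7% of 69 and 47.1% of 51 reads in CT. The Gm30382 site was at 53.4% of 73 plus-strand reads and 40.5% of 74 minus-strand reads in E3, against 47.4% of 57 and 57.1% of 35 reads in CT. Other CpGs of this kind lay in a promoter of Lypd2 and in introns of Tecta, which encodes a protein of the tectorial membrane, and Aldh1a3, which encodes a retinaldehyde dehydrogenase.

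The intermediate sites lay mostly in introns and outside genes, in DNA with few CpGs. Introns held 41.1% of them (95% Wilson interval 39.4 to 42.8%), stretches outside genes 35.4% (33.8 to 37.1%), promoters, which reached 1000 bases to either side of a start, 12.2% (11.1 to 13.3%) and exons 11.3% (10.3 to 12.5%). Of the eligible sites, 23.7% were in introns, 24.5% outside genes, 41.6% in promoters and 10.3% in exons. Sites at 90% or more in both libraries were closer to the intermediate ones, with 36.8% in introns and 6.14% in promoters, while 84.4% of the sites at 10% or less were in promoters. Sites intermediate in E3 alone lay alike, with 39.7% in introns, 35.6% outside genes and 12.1% in promoters. Those intermediate in CT alone had 35.7, 36.0 and 15.8% there. The median number of CpGs in 201 bases was 5 in all these groups except the low sites, against 8 for eligible sites. Among eligible sites, 2.81% of those in introns were intermediate, 2.34% outside genes, 1.79% in exons and 0.473% in promoters. The share was 3.16% where 1 to 2 CpGs lay in 201 bases around the site and 0.147% where there were 16 or more. By chromosome it ran between 1.40% on chromosome 19 and 1.92% on chromosome 16.

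**Figure D3:**
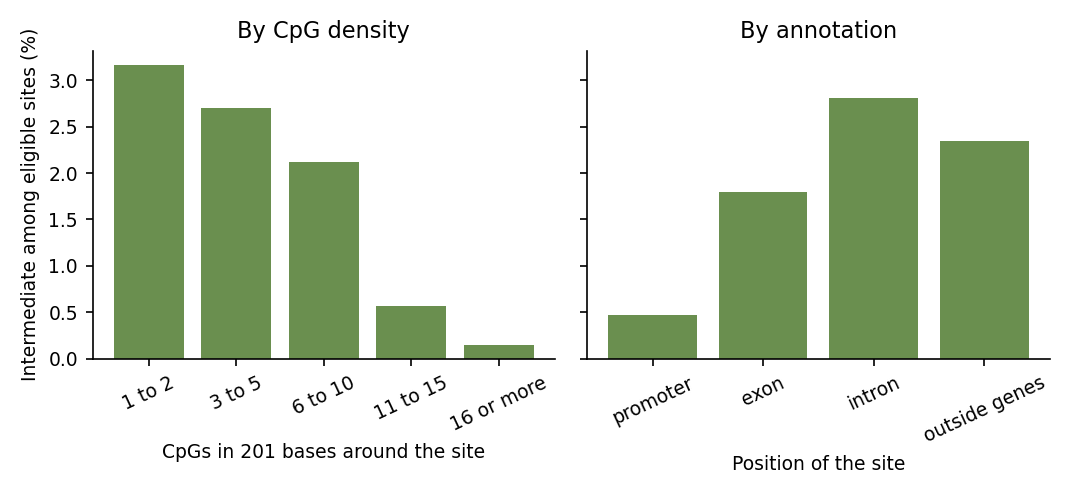
Share of eligible sites that were intermediate in both libraries (%) by the number of CpGs in 201 bases around the site (left) and by annotation (right). The share was 3.16% at the lowest CpG density and 0.147% at the highest, and 0.473% in promoters against 2.81% in introns.

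The site's own bases moved with the share as well. Cytosines of the TaqαI word TCGA made up 18.2% of the intermediate sites (582) and 8.41% of eligible sites. They made up 15.3% of the sites intermediate in E3 alone, 15.4% of those intermediate in CT alone and 9.98% of the sites at 90% or more in both. The MspI word CCGG made up 8.74% of intermediate and 6.69% of eligible sites. Only 39 TCGA sites had an opposite strand with at least 10 reads in both libraries, with medians of 52.2% in E3 and 50.0% in CT, and 66.7% of these strands were at 20 to 80% in both. Away from both words there were 2331 intermediate sites, whose 1163 opposite strands had medians of 50.9% in E3 and 50.0% in CT and were at 20 to 80% in both libraries in 59.0%. The part of the cutting sites in the choice of sites was not tested.

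Most CpGs next to an intermediate site were at 20 to 80% as well. Of the 3192 sites, 2253 had another measured CpG within 50 bases on the same strand, at a median distance of 16 bases. That neighbour was at 20 to 80% in both libraries in 59.3% and at 40 to 60% in both in 17.5%, against 9.85% and 1.37% around eligible sites. It was under 20% in both libraries in 3.28% and over 80% in both in 9.05%. The neighbour differed from the intermediate site by a median of 13.4 points in E3 and 19 points in CT. Around sites intermediate in E3 alone, 45.1% of neighbours were at 20 to 80% in both libraries and 6.79% at 40 to 60% in both. Around those intermediate in CT alone, these shares were 34.1 and 5.64%. Neighbours on 1 strand share reads with the site, so this is a description.

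Clusters were taken as at least 3 intermediate CpGs with at most 100 bases between neighbours. There were 52, holding 173 CpGs (5.46% of the intermediate CpGs), while 2530 CpGs (79.9%) stood alone and 232 groups had 2. Of the clusters, 39 had 3 CpGs, 9 had 4 and 4 had 5, and their lengths ran between 10 and 165 bases with a median of 54. Genes covered 40 clusters and 12 lay outside them, and 11 touched a promoter. Every CpG measured in 34 clusters was intermediate on the plus strand, the minus strand or both. The other strand of such a CpG could lie outside the chosen range. In 40 clusters all intermediate sites were on the same strand. The 186 other sites inside the clusters, mostly on the opposite strand, were at 20 to 80% in both libraries in 67.7% (126). Of the 186, 59 were called (31.7%), 36 as higher and 23 as lower in E3. Over all sites tested 11.0% were called, and 34.7% of those at 30 to 70% over both libraries. The 186 sites were not limited to 30 to 70%. Sites of a cluster share reads and are not replicates of each other.

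The other cytosines in the clusters had low levels in both libraries. CHG sites in clusters were at 2.09% in E3 (95% Wilson interval 1.90 to 2.31%) and 1.95% in CT (1.69 to 2.26%), against 2.23% in E3 and 2.30% in CT over chromosomes 1 to 19. CHH sites in clusters were at 3.17% in E3 (3.0 to 3.35%) and 2.46% in CT (2.24 to 2.69%), against 2.46% in E3 and 2.70% in CT over these chromosomes. H stands for any base but G. The intervals here count each cytosine of each read as independent, so they can be too narrow.

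Imprinted genes had clusters at Nap1l5, which lies within Herc3, and at Zrsr1, which lies within Commd1. Nap1l5 encodes a protein related to nucleosome assembly factors and Zrsr1 one related to the splicing factor U2AF, and both are known as retrogenes expressed from the paternal allele, with a promoter methylated on the maternal one. At Nap1l5 5 CpGs between 58906821 and 58906857 of chromosome 6 were intermediate, 269 bases from the start. On the minus strand each was at 59% of 34 reads in E3, and in CT the first was at 47% and the others at 40% of 30 reads. The plus strand was lower in both libraries, between 25 and 28.6% of 53 to 56 reads in E3 and at 0% of 10 reads in CT, a count that allows up to 30%. The difference between E3 and CT on the plus strand did not pass the test at any of the 5 CpGs (Fisher's exact test, 2-sided, p between 0.0997 and 0.104). Summed over all sites of the cluster and both strands, the level was 38.9% in E3 and 30.5% in CT.

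At Zrsr1 the strands parted in opposite directions. The 4 intermediate CpGs between 22972036 and 22972089 of chromosome 11, 31 bases from the start, were at 44, 48, 48 and 52% of 50 minus-strand reads in E3 and at 40 to 41% of 34 or 35 reads in CT. On the plus strand they were at 15.4 to 17.9% of 78 reads in E3 and at 70 to 80% of 20 reads in CT. All 4 were called as lower in E3 on that strand, with exact p between 8.51e-08 and 1.68e-05, and the first had an adjusted p of 3.95e-05. Summed over both strands, the cluster was at 28.5% of 512 site reads in E3 and 52.1% of 219 in CT. A further intermediate CpG of Zrsr1, in its exon at position 22974027, was at 40% of 50 reads in E3 and 53% of 30 reads in CT.

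Other promoters held 9 clusters. At Tmem267, which encodes a transmembrane protein, 5 CpGs 236 bases from the start were at 56 to 59% of 67 or 68 plus-strand reads in E3 and at 52 to 57% of 21 or 22 reads in CT. The minus strand was deeper, at 76 to 78% of 172 reads in E3 and 35 to 58% of 48 reads in CT, and all 5 sites were called as higher in E3 on that strand (exact p between 4.14e-07 and 0.0182). At Zmynd8, which encodes a reader of histone marks, 3 plus-strand CpGs were at 53 to 54% of 71 or 72 reads in E3 and at 50% of 20 reads in CT. Their minus strand was at 38 to 41% of 73 reads in E3 and 9 to 18% of 22 reads in CT, and 2 of the 3 were called. In the remaining promoter clusters each had 3 CpGs. Klhl31, which encodes a kelch-like protein, averaged 57% in E3 and 45.4% in CT over 135 and 108 site reads. Krt8, a keratin of simple epithelia, averaged 51.4% in E3 and 45% in CT, and Ptf1a, a transcription factor of pancreas and inhibitory neurons, whose cluster lay at the promoter of its antisense gene Ptf1aos, 41.9% in E3 and 54.2% in CT. Within the Ptf1a cluster, the same strand at 19447179 was at 24% in E3 and 54% in CT, and was called as lower. The minus strand at 19447124 was at 19% of 57 reads in E3 and 8% of 13 reads in CT. Rtp2, Tbc1d30, Gm9353 and 3300005D01Rik averaged between 50.0 and 54.7% in E3 and between 44.4 and 58.5% in CT.

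**Figure D4:**
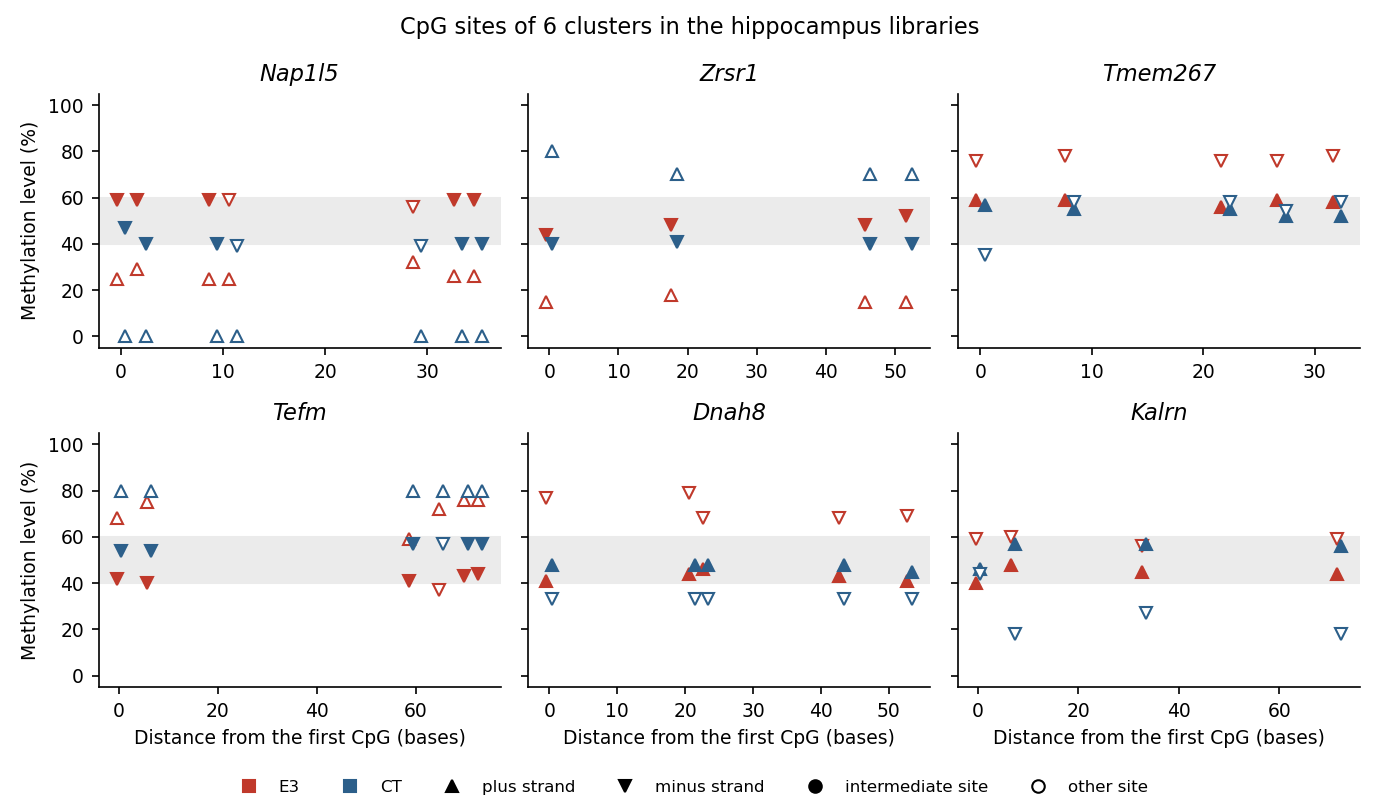
Methylation level (%) of each measured CpG site in 6 clusters against its distance in bases from the first intermediate CpG, for E3 (red) and CT (blue), the plus strand (triangles up) and the minus strand (triangles down), with intermediate sites filled and others open; the grey band is 40 to 60% and the libraries are drawn slightly apart sideways. At Zrsr1 the open plus-strand points lie at 15 to 18% in E3 and 70 to 80% in CT, and at Nap1l5 at 25 to 32% in E3 and 0% in CT.

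Within genes, the clusters with the most CpGs were at Dnah8, Tmem267, Tefm and Nap1l5, each with 5. In an intron of Dnah8, which encodes an axonemal dynein heavy chain, the plus strand was at 41 to 46% of 73 to 76 reads in E3 and 45 to 48% of 20 or 21 reads in CT. The minus strand was at 68 to 79% of 45 to 48 reads in E3 and at 33% of 9 reads in CT, and 2 of the 5 sites were called. In an exon of Tefm, a mitochondrial transcription elongation factor, the 5 intermediate sites on the minus strand were at 40 to 44% of 43 to 51 reads in E3 and 54 to 57% of 26 to 30 reads in CT. A CpG between them at position 80137049 was at 37% of 51 minus-strand reads in E3 and 57% of 30 in CT. Over this and the other 6 sites the levels were 65.7% in E3 and 72.2% in CT, and none was called.

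In Kalrn, which encodes a guanine nucleotide exchange factor of dendritic spines, 4 plus-strand CpGs were at 40, 48, 45 and 44% in E3 and at 46, 57, 57 and 56% in CT. Their minus strand was at 58.5% of 142 site reads in E3 and 24.5% of 53 in CT, with 2 of 4 sites called as higher. In Grik4, a kainate receptor subunit, 4 CpGs averaged 41.6% in E3 and 45.5% in CT, and the 8 other sites 44.7% in E3 and 25.3% in CT. Called sites among these went both ways. Both strands at 42518324 and the minus strand at 42518343 were higher in E3, the first at 57% against 7% on the plus strand. The plus strand at 42518362 was lower, at 36% in E3 and 73% in CT. In Robo2, the axon guidance receptor of Slit proteins, 3 CpGs averaged 47.7% in E3 and 54.4% in CT and the other strands 43.6% and 46.0%, with no site called. In Tenm3, a teneurin that guides hippocampal wiring, 3 CpGs averaged 51.6% in E3 and 54.8% in CT, and the 5 other sites 70.4% in E3 and 43.7% in CT. In Pde10a, a cyclic nucleotide phosphodiesterase, 4 CpGs were at 53 to 60% of 29 or 30 reads in E3 and at 50% of 20 reads in CT.

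The remaining clusters with 4 CpGs in a gene were at Map3k11, Ap1s1, Prelp and Zfp282. Map3k11 encodes a kinase of the JNK pathway, and its 4 plus-strand CpGs were at 57, 59, 43 and 41% of 74 reads in E3 and at 55, 55, 45 and 55% of 22 reads in CT. CpGs between them on the same strand were at 0% of 22 reads in CT, which allows up to 13.6%, at 3 sites where E3 had 27 to 42%, so the levels in CT were not even along this stretch. The minus strand went the other way, at 23 to 77% of 25 or 26 reads in E3 and 75 to 100% of 8 reads in CT. At 5696055 and 5696076 the minus strand was called as lower in E3, at 31% against 75%, and the plus strand as higher. In Ap1s1, a subunit of the AP-1 clathrin adaptor, 4 CpGs averaged 42.2% in E3 and 43% in CT. Prelp, a leucine-rich repeat protein of the extracellular matrix, had 4 CpGs within 16 bases at 55 to 58% of 50 or 51 reads in E3 and 50% of 28 reads in CT. Zfp282, a zinc finger gene, had 4 CpGs within 11 bases at 40 to 50% of 20 reads in E3 and 45 to 50% of 20 reads in CT. In Ptprj, a receptor tyrosine phosphatase, 3 CpGs averaged 48.1% in E3 and 40% in CT. In Plekhh2 3 CpGs averaged 51.2% in E3 and 48.6% in CT, and the 3 other sites 45.5% in E3 and 74.1% in CT.

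Of the 12 clusters outside genes, the one nearest to a known receptor gene lay 4591 bases from the start of Fgfr1, where 3 CpGs averaged 44.0% in E3 and 44.2% in CT. The 4 other sites there were at 72.8% of 169 site reads in E3 and 46.0% of 63 in CT. The one on chromosome 8 between 15519942 and 15519959, 10442 bases from the start of Gm46033, was at 51.7% in E3 and 45.5% in CT on the minus strand. Its plus strand was the deepest among the clusters described here, at 28 and 29% of 276 and 273 reads in E3 and at 8 and 9% of 100 reads in CT (exact p = 2.13e-05 and 2.89e-05). The 5 other named clusters outside genes, on chromosomes 5, 13, 15 and 18, averaged between 45.6 and 53.8% in E3 and between 43.6 and 58.1% in CT.

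The letters TGCCGC, the motif bound by the imprinting factor ZFP57, were searched on both strands in 300 bases around each cluster. They were found in 9 of 52 windows (17.3%), among them the Nap1l5 but not the Zrsr1 window, against 26368 of 182837 windows around eligible CpGs (14.4%). The share in the windows of clusters was thus close to that of all windows.

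Among 20251 genes with an eligible CpG in the gene or within 1000 bases upstream of it, 1729 had an intermediate CpG (8.54%) and 55 a cluster (0.272%). Of 55 matched imprinted genes, 49 had an eligible CpG, 9 an intermediate one (18.4%) and 4 a cluster, which are the 2 pairs of nested genes above. These 9 genes held 17 different intermediate CpGs among the 512 eligible CpGs of the list (3.32%, against 1.73% of all eligible CpGs). Each nested pair counts the same 5 intermediate CpGs for both of its genes. Imprinted genes with an eligible CpG had a median of 8 eligible CpGs, against 5 over all such genes. In an intron of Grb10, which encodes an adaptor that restrains growth, 2 CpGs were at 40% of 45 reads in E3 and 41% of 34 in CT, and on the opposite strand at 26.7% of 45 reads in E3 and 16.7% of 12 in CT. In Snrpn, the small nuclear ribonucleoprotein gene of the Prader-Willi region, 2 of 25 CpGs were intermediate, at 52 and 43% in E3 and 53 and 42% in CT. Ddc, H13 and Gnas had 1 each, at 55, 51 and 56% in E3 and 50, 44 and 42% in CT. H13 encodes a signal peptide peptidase and Gnas the alpha subunit of a stimulatory G protein. On the opposite strand the Gnas site was at 39.4% of 66 reads in E3 and 14.3% of 14 reads in CT, and the H13 site at 29.2% of 48 reads in E3 and 0% of 11 reads in CT, which allows up to 27.3%. The opposite strands of the Ddc, Grb10, H13 and Gnas sites lay below the chosen range in both libraries, while that of the Snrpn site at 60407211 was at 87.5% of 16 reads in E3 and 50% of 8 reads in CT.

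Clustered protocadherins, cell adhesion proteins that give neurons their surface identity, had an intermediate CpG in 30 of 46 genes (65.2%) and a cluster in 6. Their gene bodies overlap on chromosome 18, so 1 CpG counts for several genes, and the list held 14 different intermediate CpGs among 178 eligible ones (7.87%). The 3 CpGs of their cluster, in an exon shared with gene models of this region, were at 50 to 58% of 24 reads in E3 and 41 to 56% of 34 reads in CT. Between them on the same strand, the CpG at 37691617 was at 88% in E3 and 100% in CT and the one at 37691622 at 61% in E3 and 68% in CT, so the stretch was uneven. Single CpGs at 37721386, 37737966 and 37753887 were at 59, 50 and 60% in E3 and at 56, 40 and 53% in CT. Most of these sites had no opposite strand in the table. Of the opposite strand of the site at 37662202 near Pcdhga1, 40.6% of 69 reads were methylated in E3 and 50.0% of 8 reads in CT.

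Hox genes had an intermediate CpG in 1 of 37 genes, Hoxd1, at 43% of 65 reads in E3 and 40% of 20 in CT, which is 0.188% of their 531 eligible CpGs. Neuron markers had one in 5 of 17 genes, which is 1.63% of their 306 eligible CpGs, close to the 1.73% of all eligible CpGs. Among them Prox1, a transcription factor of dentate granule cells, was at 47% of 36 reads in E3 and 40% of 30 in CT, Camk2a, a calcium-dependent kinase of synapses, at 49% in E3 and 55% in CT, and Syt1, the calcium sensor of vesicle release, at 49% in E3 and 50% in CT. Markers of astrocytes, oligodendrocytes and microglia had none among 103, 115 and 10 eligible CpGs, which allows shares of up to 2.91, 2.61 and 30%, all above the 1.73% of all eligible CpGs, so that a lower share was not detectable at these numbers. The genes with the most intermediate CpGs beside the protocadherin region were the long genes Tenm3 with 10 of 155 eligible CpGs, Ptprd, a receptor tyrosine phosphatase of synapses, with 6 of 80, and Dnah8 with 6 of 23. Among the genes with 5 were Ntrk2, the BDNF receptor, with 39 eligible CpGs, and Rora, a nuclear receptor, with 93. Kalrn had 5 of 73, Grik4 5 of 55 and the histone methyltransferase gene Kmt2a 5 of 26. Tefm with 5 of 11, Tmem267 with 5 of 26 and Ldlrad4 with 5 of 36 had as many, and the genes named are a selection.

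The frontal cortex table lists called sites alone, with a methylated fraction per library and an unknown depth. It held 26 of the 3192 sites (0.815%, 95% Wilson interval 0.556 to 1.19%), against 0.461% of eligible sites, 1.5% of the sites intermediate in E3 alone and 0.950% of those intermediate in CT alone. Of the 26, 17 were higher and 9 lower in E3 in the frontal cortex, while 36.9% of the 9227 listed sites of chromosomes 1 to 19 were higher. The 9227 were not limited by hippocampus reads or levels, so these are unlike sets of sites. Close sites are counted singly here and are not independent. The pairs at Smarca5, at 15519942 and 15519946 of chromosome 8 and at 172229495 and 172229598 of chromosome 2 were all higher in E3. In the promoter of Smarca5, which encodes a motor of ISWI chromatin remodelling complexes, 2 neighbouring CpGs were listed, shown here in capitals (chr8:80739518-80739553, plus strand, GRCm38.p6).
Smarca5: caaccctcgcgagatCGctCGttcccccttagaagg
Both were at 41.5% of 94 reads in the E3 hippocampus, against 52.8 and 55.6% of 36 reads in the CT hippocampus, while the frontal cortex had 31.3 and 36.5% in E3 and 1.72 and 0% in CT. In Kcnj6, which encodes a potassium channel coupled to G proteins, a site was at 44.8% in E3 and 45% in CT in the hippocampus, and at 60.5% in E3 and 23.3% in CT in the frontal cortex. In Nmnat2, an NAD-synthesising enzyme that maintains axons, the hippocampus had 54.8% in E3 and 60.0% in CT and the frontal cortex 0% in E3 and 61.1% in CT. The CpGs at 15519942 and 15519946 of the cluster on chromosome 8 were listed with 33.8 and 37.5% in E3 and 20 and 24.4% in CT. Of the 26 sites, 6 were at 40 to 60% in the E3 and 5 in the CT frontal cortex.

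**Figure D5:**
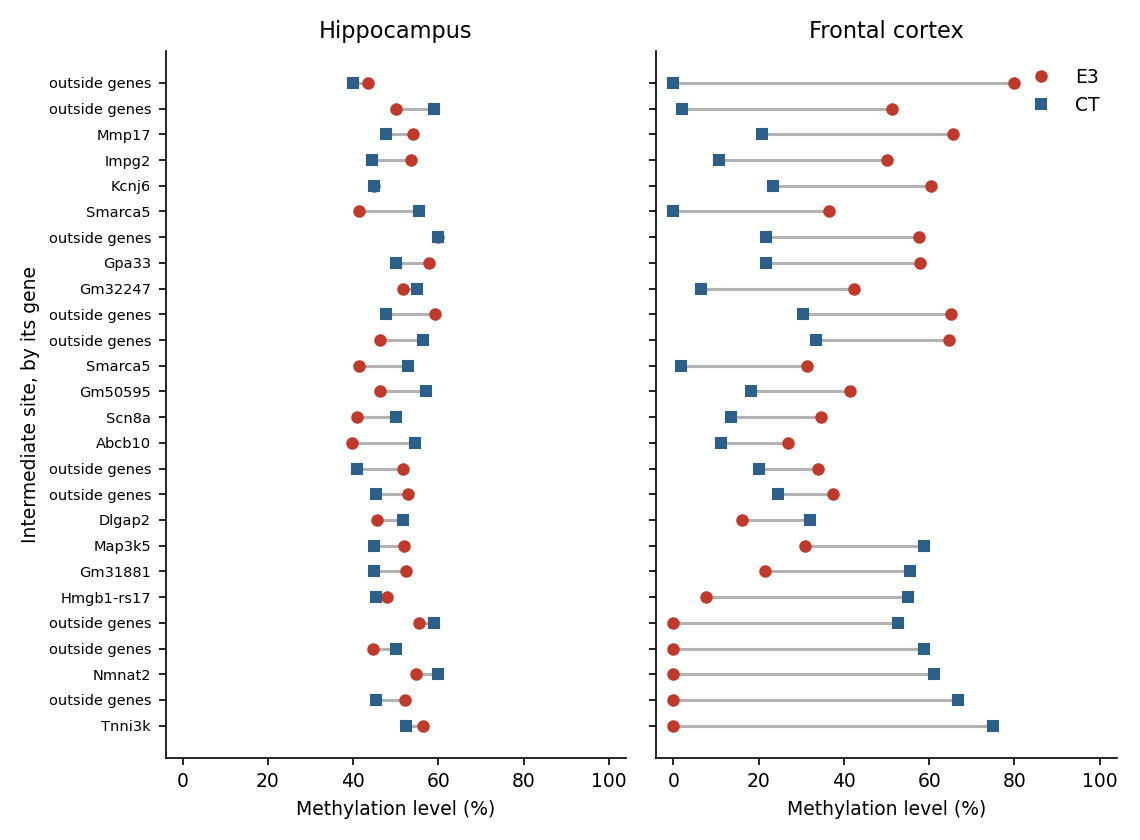
Methylation level (%) of the 26 intermediate hippocampus sites that the frontal cortex table lists, in the hippocampus (left) and the frontal cortex (right), with E3 as red circles and CT as blue squares, 1 line per site by its gene. The hippocampus levels lie between 40 and 60% by choice, while in the frontal cortex 5 sites are at 0% in E3 and 17 of 26 are higher in E3.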

How the data were processed

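Per the study's methods, the authors trimmed the reads with TrimGalore 0.6.4, checked them with FastQC 0.11.8, aligned them to mm10 with Bismark 0.19.0 and extracted calls with MethylDackel 0.4.0. The deposited hippocampus tables give read counts and the methylated fraction (2 decimals) of each library per cytosine and strand, at sites with at least 5 reads in both. The deposited frontal cortex CpG table gives the fraction per library at called sites. The tables also hold the authors' own p-values and differences, which were not used. Non-CpG sites of the frontal cortex were not used here.

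Methylated reads were rebuilt as fraction times reads, rounded. Levels of sites chosen by the rule are the deposited fractions. Percentages on opposite strands and sums come from the rebuilt counts. Every table position is a CpG in GRCm38.p6, whose RefSeq genes were used. The genes and clusters named are those at imprinted genes, the 20 clusters with the most CpGs, those at promoters, up to 4 genes of each other list and the 6 clusters with the largest difference over other reads. Others were picked after their values were seen, and a gene among those chosen is not reported here. The sites and lists were chosen with earlier results of these data known. Of 60 imprinted names, 55 matched. Fisher's exact tests ran on all 2226271 sites, with Benjamini-Hochberg adjustment over them. The test and the clustering were tested on simulated data. Python 3.11.15, numpy 2.4.6, pandas 2.3.3, scipy 1.17.1 and numba 0.67.0 were used. Alternatives changed the levels, reads, gap, cluster size, strand handling, promoter width, neighbour distance and call thresholds.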

Additional observations from a re-analysis of the deposited data

Results flagged for a closer look

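At 5 of the sites intermediate in the hippocampus, E3 and CT differed by at least 10 points in opposite directions in the hippocampus and the frontal cortex. In each tissue there was 1 library per condition and the depth of the frontal cortex is unknown, so the difference between the tissues was not tested. In every one of the 5 the hippocampus level was lower in E3, and the frontal cortex level was higher in E3. The hippocampus levels were those that chose the sites, so their difference is a description and carries no test. The 5 were picked for opposite directions, and listed sites at least 10 points apart also went the same way. The site at 172229495 of chromosome 2 was higher in E3 by 11.4 points in the hippocampus and 34.6 in the frontal cortex. That at 15519942 of chromosome 8 was higher by 10.8 and 13.8 points. The CpGs of the Smarca5 promoter at 80739533 and 80739537 of chromosome 8 were at 41.5% in E3 and 52.8 and 55.6% in CT in the hippocampus, and 29.6 and 36.5 points higher in E3 in the frontal cortex. The Abcb10 promoter site (chromosome 8, 123983430) was 15.8 points higher in E3 in the frontal cortex, the Gm50595 site (chromosome 2, 75609486) 23.3 points and a site outside genes (chromosome 2, 172229598) 31.4 points. Of all 26 listed sites, 15 did not share the direction of the frontal cortex in the hippocampus, where the choice of sites limits the difference to 20 points.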

How the results depend on the processing

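The number of intermediate sites and clusters depended on the range and the reads. With levels of 35 to 65% there were 6682 sites and 207 clusters, and with 45 to 55% there were 872 sites and 6 clusters. With at least 10 reads there were 14588 sites, with at least 30 reads 686, with no upper limit 3771, and with both strands summed 4946 CpGs (1.71% of those eligible, against 1.62% of sites). Only 4 clusters had at least 5 CpGs, and a gap of 50 or 200 bases gave 35 or 60. The share of opposite strands at 40 to 60% in both libraries, 10.8%, was 12.6% with at least 20 reads, 18.8% for the range of 35 to 65% and 2.22% for 45 to 55%. The whole table had 245215 called sites, and 147730 with at least 10 reads, 41191 with at least 20 reads, 74635 with the adjusted p and 222003 with 25 points. The share of called opposite strands, 32.3%, was 37.0% with at least 10 reads, 44.8% with at least 20 reads and 11.2% with the adjusted p. With promoters of 500 bases on each side, 7.33% of sites lay in them. Of 25 settings run, 19 moved a value beyond its counting error, or a count by more than 1.5 times, and 6 did not. The depth of CT, with a median of 24 reads at these sites, limits every CT level. No paired analysis was possible because each condition had 1 library per tissue.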
